A study of Homo sapiens with 8 samples.

Results

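COL6A1, COL6A2, FN1, ITGA6, ITGB4, TIMP2, TWIST1 and ACTA2 are genes of the extracellular matrix, of the receptors that hold epithelial cells to it, and of the mesenchymal and contractile state. These 8 of the 19035 gene symbols in the expression table were chosen by their transcript levels in sgSETD1A against sgEmpty libraries, so the difference between those groups is given for them as a description and carries no test. The sgSETD1A libraries came from KPL-1 breast cancer cells with an inducible Cas9 (iCas9) and a guide RNA named for SETD1A, a histone methyltransferase gene; the labels give the genotype as a SETD1A knockout. The sgEmpty libraries came from the same iCas9 line with a guide labelled Empty and the genotype given as wild type. All cells, controls included, had 7 days of doxycycline, which switches Cas9 on, and each group had 3 libraries. The labels do not say whether the line or the knockout was a clone, nor whether the 3 libraries of a group stem from different cultures; the spread behind each p-value is therefore that of these libraries and may be technical. KPL-1 is listed in cell line registries as a derivative of the luminal line MCF-7.

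Collagen VI is built from chains encoded by separate genes, among them COL6A1 and COL6A2, and forms a beaded filament network in the matrix around cells. Fibronectin, the product of FN1, is a matrix glycoprotein bound by integrins, which are receptors made of 1 alpha and 1 beta subunit. The alpha 6 subunit (ITGA6) pairs with beta 4 (ITGB4) in the laminin receptor of hemidesmosomes, the anchors of epithelial cells on the basement membrane, or with beta 1 (ITGB1). TIMP2 encodes a secreted inhibitor of matrix metalloproteinases, TWIST1 a transcription factor known for driving epithelial cells towards a mesenchymal state, and ACTA2 the alpha actin of smooth muscle and myofibroblasts.

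Promoter sequences are shown so that the start regions of 3 genes with higher levels can be set beside that of ACTA2. RefSeq promoter windows (GRCh38.p14) matched 4 of the 8 genes, with 6 windows, and the 250 bases before the start are printed 5′ to 3′ for 1 window of each gene. Capitals mark matches, on either strand, to GGGCGG (the GC box), TATAAA (the TATA box), CATCTG (a form of the E-box, the kind of site TWIST1 binds), TGACGTCA (the cyclic AMP response element) and the CArG box, the site of serum response factor, with at most 1 letter off. These motifs were picked with the windows in view.
COL6A2 (chr21:46097862-46098111, plus strand): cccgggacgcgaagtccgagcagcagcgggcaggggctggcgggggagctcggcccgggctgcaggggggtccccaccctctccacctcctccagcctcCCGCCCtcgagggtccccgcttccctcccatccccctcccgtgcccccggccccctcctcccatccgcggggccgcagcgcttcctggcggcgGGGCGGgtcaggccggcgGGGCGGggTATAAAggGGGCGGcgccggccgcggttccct
FN1 (chr2:215436069-215436318, minus strand): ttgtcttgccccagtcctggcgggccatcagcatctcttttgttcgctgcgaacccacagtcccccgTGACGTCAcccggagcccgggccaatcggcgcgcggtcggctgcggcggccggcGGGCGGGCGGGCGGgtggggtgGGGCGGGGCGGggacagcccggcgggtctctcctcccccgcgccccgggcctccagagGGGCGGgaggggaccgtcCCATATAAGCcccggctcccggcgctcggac
ITGA6 (chr2:172427336-172427585, plus strand): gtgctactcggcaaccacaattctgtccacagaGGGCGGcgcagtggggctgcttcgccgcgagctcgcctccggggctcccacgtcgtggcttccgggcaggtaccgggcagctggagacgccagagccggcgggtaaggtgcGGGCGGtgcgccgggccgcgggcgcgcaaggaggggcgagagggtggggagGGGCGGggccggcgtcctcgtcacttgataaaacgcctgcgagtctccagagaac
ACTA2 (chr10:88952774-88953023, minus strand): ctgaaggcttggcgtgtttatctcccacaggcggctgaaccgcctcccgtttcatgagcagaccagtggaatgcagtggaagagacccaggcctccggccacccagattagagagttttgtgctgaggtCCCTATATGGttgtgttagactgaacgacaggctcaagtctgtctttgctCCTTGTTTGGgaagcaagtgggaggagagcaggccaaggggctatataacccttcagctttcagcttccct

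The windows of COL6A2, FN1 and ITGA6 shown here were rich in G and C, at 79.6%, 76.4% and 71.6%, above 96.3%, 91.9% and 82.8% of the 35116 windows in the RefSeq table. That of ACTA2 held 54.0% G and C, above 39.9% of them, and its observed over expected CpG was 0.331, against 0.711 in COL6A2, 0.878 in FN1 and 0.962 in ITGA6. GGGCGG matched 4 times in COL6A2, 6 times in FN1, some of them overlapping, and 3 times in ITGA6, did not match in this ACTA2 window, and is held by 42.6% of all windows. The ACTA2 window held 2 CArG matches, starting at positions -121 and -71 from the start site, and FN1 held 1 starting at -31, beside 16.8% of all windows. TATAAA began at -32 in COL6A2 (10.7% of windows hold it), and the cyclic AMP response element at -183 in FN1 (1.65%). CATCTG was in none of the 4 windows printed, while 12.2% of all windows hold it. Among them is a further ITGA6 window, upstream of the one shown, with 2 matches and 50.8% G and C. That window also held a match to TATAAA, starting at -32. A further ACTA2 window with another start held 53.6% G and C, an observed over expected CpG of 0.973, 2 matches to GGGCGG and no CArG match. The contrast in CpG and in these motifs thus depends on the ACTA2 start chosen. That in G and C content depends on the start chosen for ITGA6. A match is a description of letters, not of a bound site.

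Expression was given by the authors as TPM, a relative transcript abundance that corrects for transcript length and so allows levels of different genes to be compared. The number of reads behind a TPM value cannot be recovered, and the depth is unknown. Each library listed 11769 to 11961 genes at 1 TPM or more. SETD1A itself measured 9.36, 11.3 and 10.7 TPM in the 3 sgSETD1A libraries, against 17.5, 17.5 and 18.1 TPM in the 3 sgEmpty libraries (-0.71 log2, limma adjusted p = 9.13e-05), although an edit of the gene need not lower its transcript. sgSETD1A replicate 1 stood apart from the other libraries of its group, with correlations of 0.9956 and 0.9954 to them (Pearson, log2(TPM + 1), across 11885 genes) beside 0.9977 between those 2. Of 12 luminal markers, 11 averaged at least 1 TPM, and PGR, the progesterone receptor, reached at most 0.116 TPM. The list summed to 23447 to 24098 TPM in sgSETD1A and 22609 to 24093 TPM in sgEmpty libraries, a sum that hides moves in both directions. TFF1 averaged 5734 TPM in sgSETD1A and 7155 TPM in sgEmpty libraries, while KRT8 averaged 6885 and 6214 TPM and KRT18 5175 and 4316 TPM. Of 10 fibroblast markers, 8 were under 1 TPM in every library, and DCN, THY1 and POSTN were listed at 0 throughout. The 10 summed to 3.11 to 5.00 TPM in sgSETD1A and 3.42 to 4.22 TPM in sgEmpty libraries. Most of that was COL1A1, which averaged 3.43 TPM in sgSETD1A and 2.77 TPM in sgEmpty libraries. Of 7 endothelial and 8 immune cell markers, 1 each averaged at least 1 TPM; the endothelial list summed to 1.55 to 2.25 TPM in sgSETD1A and 1.04 to 1.502 TPM in sgEmpty libraries, and the immune list to 1.61 to 1.95 and 1.72 to 1.91 TPM. The 9 basal and myoepithelial markers summed to 91.2 to 95.0 TPM in sgSETD1A and 93.2 to 104.2 TPM in sgEmpty libraries, most of it CDH3, and KRT5 and CNN1 were listed at 0 throughout. Of the same list, TP63 averaged 1.18 TPM in sgSETD1A and 0.478 TPM in sgEmpty libraries, and OXTR 2.55 and 3.84 TPM.

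**Figure D1:**
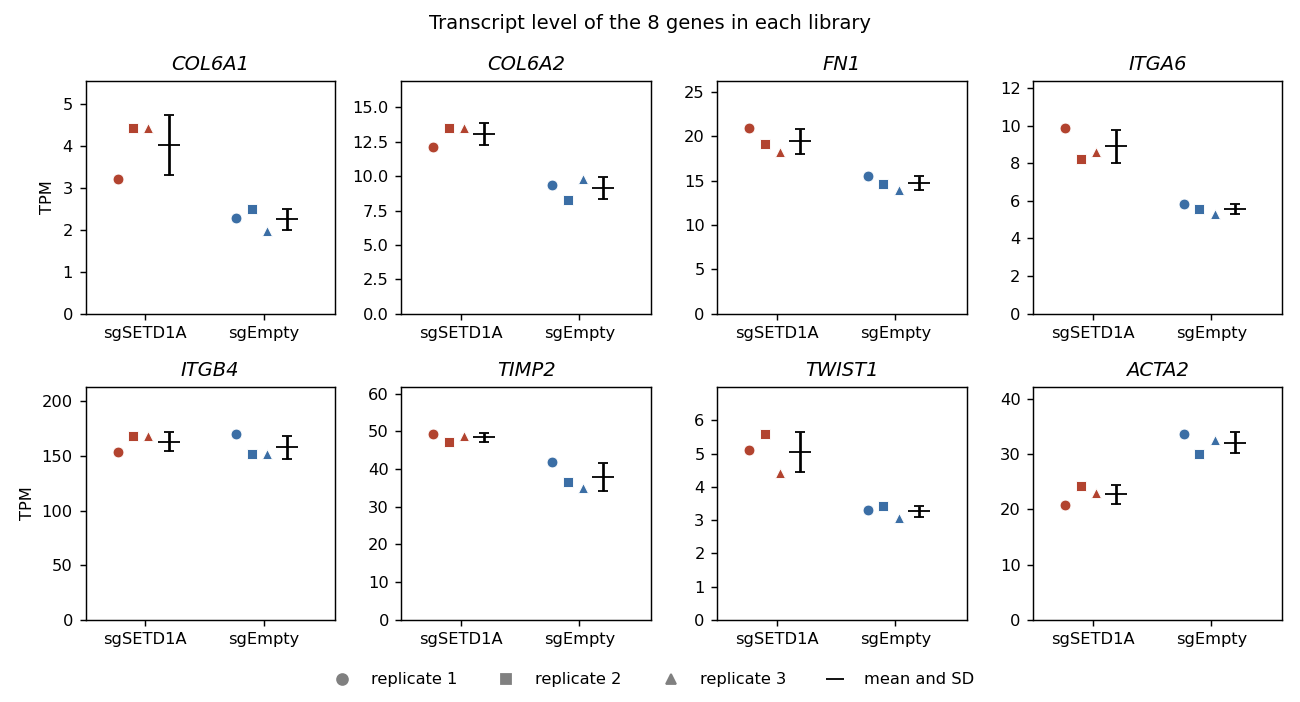
Transcript level in TPM (vertical axis, from 0, scaled per gene) of the 8 genes in each of the 3 sgSETD1A and 3 sgEmpty libraries, with the mean and SD of each group. The groups do not overlap for 7 genes, of which ACTA2 is the one lower in sgSETD1A, and they overlap for ITGB4. Among all tested genes 36.4% are separated in this way as higher and 17.3% as lower. The 8 were chosen on these values, so nothing is read from the count.

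Among the matrix genes, the collagen VI chain genes COL6A1 and COL6A2 were low and higher in sgSETD1A cells. COL6A1 measured 3.20, 4.43 and 4.42 TPM in sgSETD1A libraries, against 2.27, 2.48 and 1.98 TPM in sgEmpty libraries. Every sgSETD1A library was above every sgEmpty library, and sgSETD1A replicate 1 was the lowest of its group. The means were 4.02 ± 0.71 and 2.25 ± 0.25 TPM (SD, n = 3 each), a ratio of 1.79. The mean difference of log2(TPM + 1) was 0.62 (SE 0.12); all log2 values of differences are of this kind, come out too small for low genes and are not the log2 of the ratio. COL6A2 measured 12.1, 13.5 and 13.5 TPM in sgSETD1A libraries, against 9.38, 8.28 and 9.82 TPM in sgEmpty libraries. Here too the groups did not overlap and sgSETD1A replicate 1 was the lowest of its group. The ratio of the means, 13.1 ± 0.82 and 9.16 ± 0.80 TPM (SD, n = 3 each), was 1.43, and the log2(TPM + 1) difference was 0.47 (SE 0.077).

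Of the other collagen VI chains measured, which were not among the 8 genes, only COL6A3 passed the filter of 1 TPM on average and could be tested. COL6A3, which encodes the largest of the main chains, measured 2.62, 2.77 and 3.37 TPM in sgSETD1A libraries, against 3.34, 3.12 and 2.79 TPM in sgEmpty libraries. The groups overlapped, and the difference of -0.06 log2 (SE 0.10) did not pass the test (limma adjusted p = 0.656 over all 11885 tested genes). COL6A5 was listed at 0 in every library, and COL6A6 at 0 in all but sgSETD1A replicate 1, with 0.0131 TPM. Within a library COL6A2 exceeded COL6A1 by 3.78, 3.05 and 3.06 times in sgSETD1A, against 4.13, 3.33 and 4.96 times in sgEmpty, ranges that overlap.

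COL6A1 and COL6A2 lie side by side on chromosome 21, between PCBP3 and FTCD in the RefSeq gene order. PCBP3, an RNA-binding protein gene, averaged 4.31 ± 0.67 and 3.12 ± 0.43 TPM (SD, n = 3 each) in sgSETD1A and sgEmpty libraries; its groups overlapped, and its difference of 0.36 log2 (limma adjusted p = 0.0328) no longer passed with values rescaled by the median of ratios (adjusted p = 0.0699), quantile-normalized (adjusted p = 0.102), with no filter (adjusted p = 0.0707), or without sgEmpty replicate 2 or 3 or sgSETD1A replicate 1 or 3 (adjusted p = 0.0891 to 0.105). FTCD, an enzyme of histidine breakdown, averaged 1.95 ± 0.82 and 2.01 ± 0.34 TPM (SD, n = 3 each) and did not pass (limma adjusted p = 0.807). The next gene past FTCD, C21orf56 (now SPATC1L), rose to 20.6 ± 2.15 TPM in sgSETD1A against 14.5 ± 1.95 TPM in sgEmpty libraries (SD, n = 3 each; 0.48 log2, limma adjusted p = 0.00446). The next gene past PCBP3, the folate carrier gene SLC19A1, averaged 29.4 ± 0.85 and 28.6 ± 3.11 TPM (SD, n = 3 each; limma adjusted p = 0.664).

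FN1 measured 21.0, 19.1 and 18.2 TPM in sgSETD1A libraries, against 15.6, 14.6 and 13.96 TPM in sgEmpty libraries. The groups did not overlap, and in contrast to the collagen VI genes sgSETD1A replicate 1 was the highest. The means were 19.4 ± 1.41 and 14.7 ± 0.81 TPM (SD, n = 3 each), a ratio of 1.32, with a log2(TPM + 1) difference of 0.38 (SE 0.067). The subunits of the main fibronectin receptor were measured too. ITGB1, the beta subunit that it shares with many integrins, rose to 211.1 ± 9.52 TPM in sgSETD1A against 183.3 ± 4.25 TPM in sgEmpty libraries (SD, n = 3 each; 0.20 log2, limma adjusted p = 0.00354). ITGA5, its alpha subunit, averaged 17.4 ± 0.052 and 15.0 ± 1.90 TPM (SD, n = 3 each) and did not pass (0.21 log2, limma adjusted p = 0.0605), but passed without sgEmpty replicate 1 (adjusted p = 0.00815).

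Of the subunits of the hemidesmosome integrin, ITGA6 was higher in sgSETD1A cells while the groups overlapped for ITGB4. ITGA6 measured 9.89, 8.20 and 8.61 TPM in sgSETD1A libraries, against 5.82, 5.56 and 5.28 TPM in sgEmpty libraries. The groups did not overlap and sgSETD1A replicate 1 was again the highest; the ratio of the means, 8.90 ± 0.88 and 5.55 ± 0.27 TPM (SD, n = 3 each), was 1.60, and the log2(TPM + 1) difference was 0.59 (SE 0.082). ITGB4 measured 153.3, 168.0 and 167.7 TPM in sgSETD1A libraries, against 170.3, 151.6 and 152.0 TPM in sgEmpty libraries. These groups overlapped over nearly their whole range, with means of 163.0 ± 8.43 and 158.0 ± 10.7 TPM (SD, n = 3 each) and a difference of 0.05 log2 (SE 0.055), which turns to -0.03 with median-ratio rescaling and to -0.02 with quantile normalization. Within a library ITGB4 exceeded ITGA6 by 15.5, 20.5 and 19.5 times in sgSETD1A, against 29.3, 27.3 and 28.8 times in sgEmpty. The ratio was thus lower in every sgSETD1A library, at 18.5 ± 2.64 against 28.4 ± 1.03 (SD, n = 3 each), and ITGB4 transcripts were in large excess over those of ITGA6 in all 6. The ratio of ITGB1 to ITGA6 was 23.8 ± 1.24 in sgSETD1A and 33.0 ± 0.93 in sgEmpty libraries (SD, n = 3 each). Both ratios contain ITGA6, which was chosen on these values, so nothing is read from their separation between the groups.

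**Figure D2:**
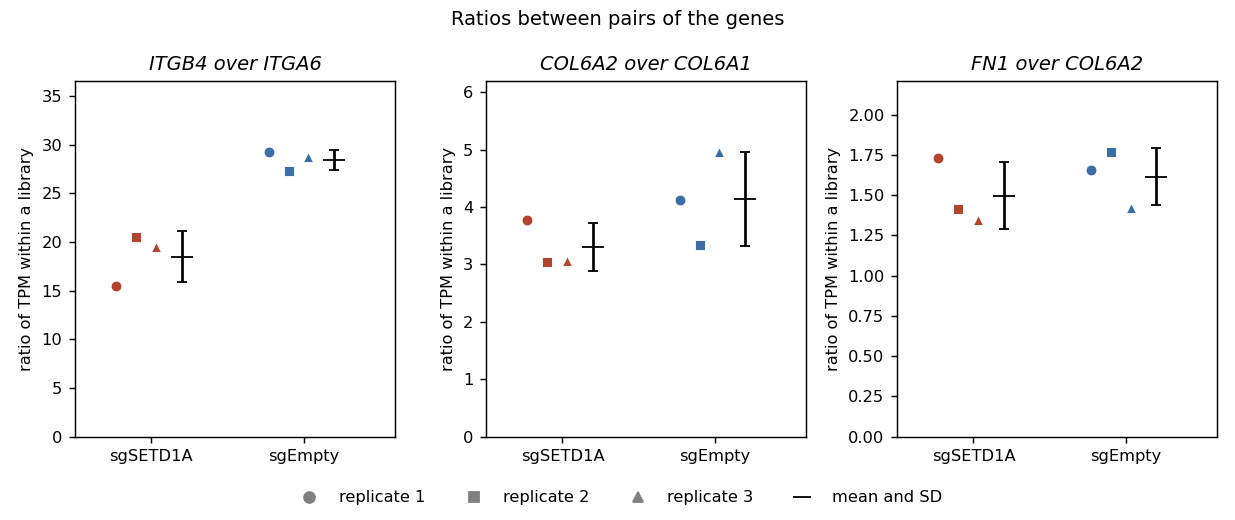
Ratio of the TPM of one gene to that of another within each library (vertical axis, from 0), for 3 sgSETD1A and 3 sgEmpty libraries, with the group mean and SD. ITGB4 over ITGA6 does not overlap between the groups (18.5 and 28.4 on average), while COL6A2 over COL6A1 and FN1 over COL6A2 do. The genes were chosen on these values, so nothing is read from the separation.

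None of the 3 tested partners of this integrin in the hemidesmosome passed the test, which 41.5% of all tested genes passed. With so few genes nothing is read from that count. PLEC, the plectin that links ITGB4 to keratin filaments, averaged 93.3 ± 2.75 TPM in sgSETD1A and 86.9 ± 3.16 TPM in sgEmpty libraries (SD, n = 3 each; limma adjusted p = 0.0778), and the tetraspanin CD151 averaged 326.1 ± 4.82 and 339.0 ± 18.7 TPM (SD, n = 3 each; limma adjusted p = 0.306). DST, whose epithelial isoform is a hemidesmosome plakin, averaged 12.6 ± 2.16 and 13.5 ± 0.91 TPM (SD, n = 3 each; limma adjusted p = 0.449). Without sgSETD1A replicate 1 PLEC passed as higher (adjusted p = 0.0365) and DST as lower (adjusted p = 0.0284), and CD151 passed as lower after median-ratio rescaling (adjusted p = 0.0352) and quantile normalization (adjusted p = 0.0315). COL17A1, a hemidesmosome collagen, reached at most 0.0411 TPM. Laminins are the ligands of this integrin; of their chains, LAMA3 averaged 0.219 ± 0.048 and 0.127 ± 0.022 TPM and LAMB3 1.53 ± 0.11 and 1.53 ± 0.17 TPM in sgSETD1A and sgEmpty libraries (SD, n = 3 each). LAMB3 did not pass (limma adjusted p = 0.983), and LAMA3 was below the filter of 1 TPM on average. ITGA3, the alpha subunit of another laminin receptor, averaged 45.7 ± 1.93 and 45.4 ± 1.40 TPM (SD, n = 3 each; limma adjusted p = 0.911).

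TIMP2 measured 49.4, 47.0 and 48.8 TPM in sgSETD1A libraries, against 42.0, 36.7 and 34.9 TPM in sgEmpty libraries. The groups did not overlap, and sgEmpty replicate 1 came nearest to the sgSETD1A range. The means were 48.4 ± 1.20 and 37.9 ± 3.66 TPM (SD, n = 3 each), a ratio of 1.28, with a log2(TPM + 1) difference of 0.35 (SE 0.065). Of the proteases it is best known to bind, MMP2 was listed at 0 in every library. MMP14, the membrane protease with which TIMP2 activates MMP2, averaged 0.671 ± 0.17 and 0.898 ± 0.27 TPM (SD, n = 3 each) and overlapped between the groups. Transcripts of other matrix metalloproteinases were present. MMP15 averaged 19.3 ± 0.79 TPM in sgSETD1A and 21.0 ± 1.53 TPM in sgEmpty libraries (SD, n = 3 each) and did not pass (limma adjusted p = 0.172). MMP17 averaged 14.1 ± 1.61 and 11.2 ± 0.30 TPM (SD, n = 3 each) and passed as higher (0.29 log2, limma adjusted p = 0.0169). Both are named here after their values were seen.

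TWIST1 measured 5.12, 5.60 and 4.41 TPM in sgSETD1A libraries, against 3.29, 3.41 and 3.07 TPM in sgEmpty libraries. Every sgSETD1A library was above every sgEmpty library, with means of 5.04 ± 0.60 and 3.26 ± 0.17 TPM (SD, n = 3 each), a ratio of 1.55, with a log2(TPM + 1) difference of 0.50 (SE 0.094). TCF3, which encodes E proteins that pair with TWIST1, averaged 51.4 ± 2.85 and 50.7 ± 2.17 TPM (SD, n = 3 each) and did not pass (limma adjusted p = 0.797).

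ACTA2 was the only one of the 8 with a lower level in sgSETD1A cells. It measured 20.8, 24.3 and 23.0 TPM in sgSETD1A libraries, against 33.7, 30.1 and 32.5 TPM in sgEmpty libraries. The groups did not overlap, and the means were 22.7 ± 1.75 and 32.1 ± 1.85 TPM (SD, n = 3 each), a ratio of 0.707, with a log2(TPM + 1) difference of -0.48 (SE 0.067). The cytoplasmic actins went the other way: ACTB rose by 0.30 log2 (4345 ± 109.2 TPM in sgSETD1A and 3520 ± 172.3 TPM in sgEmpty libraries; SD, n = 3 each; limma adjusted p = 2.30e-04) and ACTG1 by 0.16 log2 (limma adjusted p = 0.00120). ACTG2, the enteric smooth muscle actin, was at 0.870, 0.426 and 1.23 TPM in sgSETD1A libraries, against 0.104, 0 and 0 TPM in sgEmpty libraries, below the filter. Actin genes are close in sequence, so reads could be split between them and single values are uncertain.

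By RefSeq coordinates, 7 of the 8 genes overlap another gene, and for 3 of them that gene has its own TPM values: ATIC with FN1, GALK1 with ITGB4 and FAS with ACTA2. ATIC averaged 240.8 ± 3.97 TPM in sgSETD1A and 283.0 ± 4.22 TPM in sgEmpty libraries, GALK1 56.0 ± 1.96 and 48.0 ± 3.07 TPM, and FAS 11.2 ± 0.94 and 12.2 ± 0.95 TPM (SD, n = 3 each). The library kit keeps strand, but no source used here states whether counting used it, so reads of overlapping genes may not be told apart.

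Read together, 6 of the 8 genes were higher in all sgSETD1A libraries than in any sgEmpty library and 1 was lower. Among all tested genes 36.4% were separated in this way as higher and 17.3% as lower, and since the 8 were chosen on these values nothing is read from their share. ITGB4 was the most abundant in either group, followed by TIMP2, ACTA2, FN1, COL6A2, ITGA6, TWIST1 and COL6A1. In sgEmpty no neighbours in this order overlapped in range, while in sgSETD1A ACTA2 overlapped with FN1 and TWIST1 with COL6A1. ITGB4 lay above 92.2% of tested genes in sgSETD1A and 92.4% in sgEmpty, and COL6A1 above 13.5% and 7.55%.

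**Figure D3:**
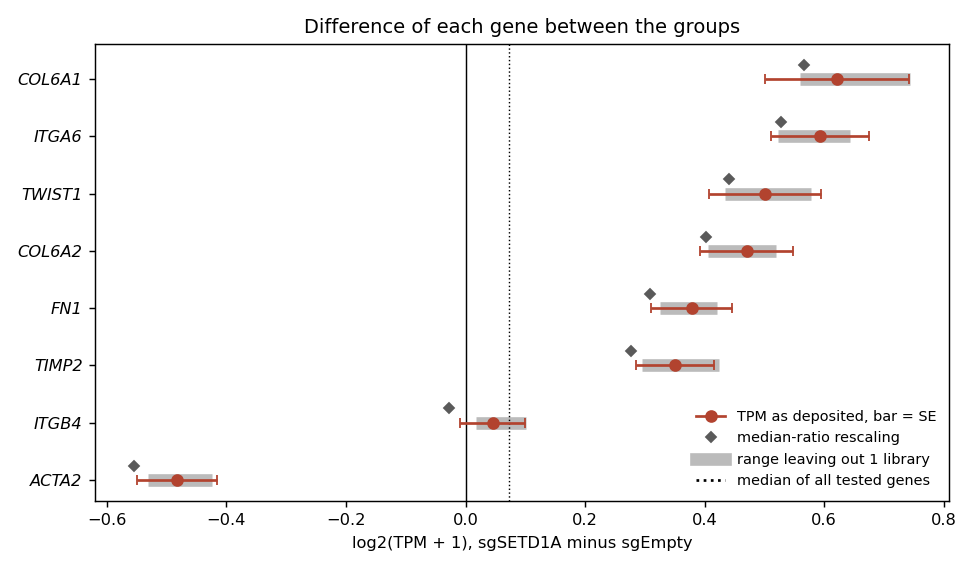
Difference of log2(TPM + 1) between sgSETD1A and sgEmpty (horizontal axis) for the 8 genes, with SE bars, the range when 1 library is left out (grey) the value after median-ratio rescaling (diamonds) and a dotted line at the median of all tested genes, 0.07. COL6A1 has the widest range (0.56 to 0.74), ITGB4 lies near 0 and ACTA2 is at -0.48.

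sgSETD1A replicate 1 did not deviate in 1 direction across the 8 genes. Its distance from the group mean was -0.25 log2 for COL6A1, -0.10 for COL6A2, -0.09 for ITGB4 and -0.12 for ACTA2, but 0.11 for FN1, 0.14 for ITGA6, 0.03 for TIMP2 and 0.02 for TWIST1. Without this library the difference was 0.74 log2 for COL6A1, 0.52 for COL6A2, 0.32 for FN1, 0.52 for ITGA6, 0.09 for ITGB4, 0.34 for TIMP2, 0.49 for TWIST1 and -0.42 for ACTA2. None of these moved by over 1.5 times except ITGB4.

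**Figure D4:**
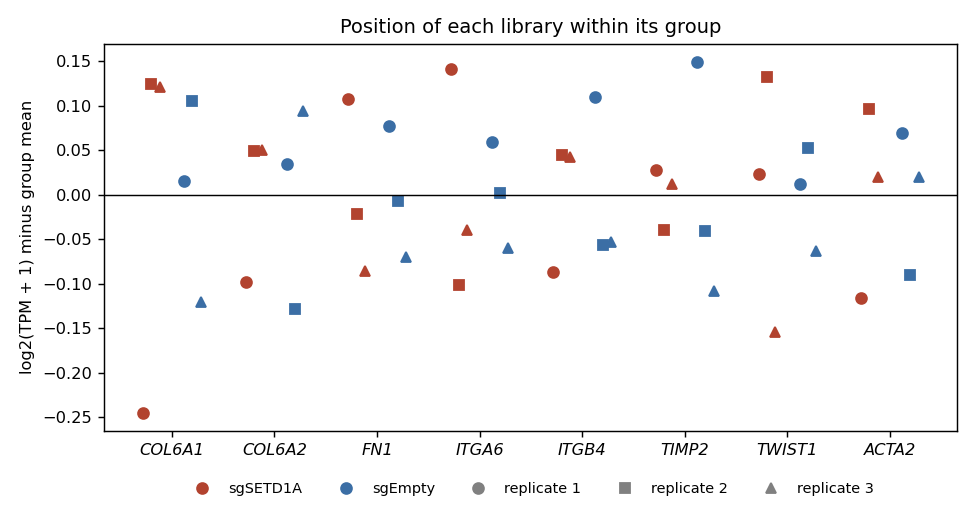
Deviation of each library from the mean of its group in log2(TPM + 1) (vertical axis) for the 8 genes, with the 3 sgSETD1A libraries left of the 3 sgEmpty libraries. sgSETD1A replicate 1 is lowest of its group for COL6A1, at -0.25, and highest for ITGA6, at 0.14.

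The tested genes most like each of the 8 were those with the smallest root-mean-square distance of log2(TPM + 1), centred over the 6 libraries. For COL6A1 these were BTNL9 (0.0558) and ABCC8 (0.0649), for COL6A2 PDP1 (0.0274) and CHD5 (0.0277), and for FN1 ZNF92 (0.0174) and ME2 (0.0216). For ITGA6 they were ERC2 (0.0289) and LARP6 (0.0365), for ITGB4 SYVN1 (0.0173) and SAAL1 (0.0196), and for TIMP2 LYSMD4 (0.0279) and CPE (0.0281). For TWIST1 they were MAPK8IP1 (0.0426) and LOC388588 (0.0457), and for ACTA2 NAB2 (0.0346) and C2orf81 (0.0355). COL6A1 had 21 tested genes within a distance of 0.1, against 826 for FN1 and 3450 for ITGB4. The distance includes the difference between the groups, on which the 8 were chosen, so nothing is read from these numbers. Among the 8 themselves FN1 and TIMP2 were the closest pair, at 0.0645.

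Other genes of these systems were read from lists that leave the 8 out. Of all 11885 tested genes, 41.5% were called (limma with Benjamini-Hochberg adjustment, adjusted p under 0.05), 28% as higher and 13.5% as lower in sgSETD1A, with a median difference of 0.07 log2, which is 0.0042 with median-ratio rescaling and 0.021 with quantile normalization. These were 3327 genes higher and 1605 lower; with median-ratio rescaling 1837 were higher and 2284 lower, and with quantile normalization 2142 and 2056. No set test was run, so the shares of a list stand beside these values without a claim that the list stands apart. In each list up to 3 called genes with the largest rise and up to 2 with the largest fall are named.

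Collagen chains and their processing enzymes had 11 genes higher and 1 lower of 24 tested, 45.8% and 4.17%, with a median of 0.18 log2. The median was 0.11 with median-ratio rescaling, 0.13 with quantile normalization and 0.07 over the 46 list genes with any signal. COL27A1, a fibrillar collagen, rose to 4.20 ± 1.15 TPM in sgSETD1A against 2.16 ± 0.31 TPM in sgEmpty libraries (SD, n = 3 each; 0.69 log2, limma adjusted p = 0.00785), COL5A1, a regulator of fibril width, by 0.56 log2 (limma adjusted p = 0.00450) and PLOD3, a lysyl hydroxylase of collagen, by 0.45 log2 (limma adjusted p = 2.11e-04). LOXL1, a crosslinking oxidase, fell by 0.25 on the log2 scale (limma adjusted p = 0.0251), a call lost without sgEmpty replicate 1 or 2 or sgSETD1A replicate 1 or 3 (adjusted p = 0.0569 to 0.0869, with 0 genes lower) and with no filter (adjusted p = 0.0516). With median-ratio rescaling or quantile normalization 7 genes were higher, and 7 also without sgSETD1A replicate 3.

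Basement membrane and hemidesmosome genes had 9 higher and 0 lower of 18 tested, 50% and 0%, with a median of 0.30 log2. At an unadjusted p under 0.05 limma gave 0 lower. Median-ratio rescaling, quantile normalization and leaving out sgSETD1A replicate 1 each gave 1 lower, and the median over the 32 genes with any signal was 0.03 log2. LAMB1, a laminin beta chain, rose to 52.0 ± 0.65 TPM in sgSETD1A against 29.8 ± 1.00 TPM in sgEmpty libraries (SD, n = 3 each; 0.79 log2, limma adjusted p = 4.58e-06), SMOC1, a calcium-binding matrix protein, by 0.59 log2 (limma adjusted p = 2.06e-04) and LAMC1, the gamma chain common to many laminins, by 0.55 log2 (limma adjusted p = 1.61e-04). LAMA5, an alpha chain that assembles with LAMC1, averaged 64.7 ± 8.40 and 51.5 ± 2.50 TPM (SD, n = 3 each; 0.31 log2, limma adjusted p = 0.0157); its call was lost without sgEmpty replicate 1 or 2 or sgSETD1A replicate 2 or 3 (adjusted p = 0.0541 to 0.0570) and with no filter (adjusted p = 0.0504).

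Matrix glycoproteins and proteoglycans had 4 higher and 2 lower of 17 tested, 23.5% and 11.8%, with a median of 0.09 log2. That median was 0.03 with median-ratio rescaling or quantile normalization, and 0.02 over the 35 genes with any signal. TGFBI, a matrix protein named for its induction by TGF-beta, rose to 6.75 ± 0.39 TPM in sgSETD1A against 3.55 ± 0.28 TPM in sgEmpty libraries (SD, n = 3 each; 0.77 log2, limma adjusted p = 1.36e-04) and THBS1, thrombospondin 1, to 345.9 ± 16.8 against 218.8 ± 15.7 TPM (SD, n = 3 each; 0.66 log2, limma adjusted p = 3.26e-05). CTGF (now CCN2) rose by 0.39 log2 (limma adjusted p = 0.0227), FBN2, a fibrillin, fell by 0.41 (limma adjusted p = 0.00551) and EFEMP1, a fibulin, fell by 0.15 (limma adjusted p = 0.0464). The call of CTGF was lost without sgEmpty replicate 1 or 2 or sgSETD1A replicate 3 (adjusted p = 0.0537 to 0.0674), that of EFEMP1 without sgEmpty replicate 1 or 3 or sgSETD1A replicate 2 or 3 (0.105 to 0.141), and both with no filter (0.0619 and 0.0699). Without sgEmpty replicate 1 or 2 the higher count was 2, and where EFEMP1 was lost 1 gene was lower.

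The other integrin subunits had 3 higher and 2 lower of 12 tested, 25% and 16.7%, with a median of 0.06 log2, which is -0.01 after median-ratio rescaling, 0.02 after quantile normalization and 0.03 over the 22 genes with any signal; the mean of the 12 was -0.04 log2. ITGB6, a beta subunit of epithelial cells, rose by 0.22 log2 (302.6 ± 9.53 TPM in sgSETD1A and 260.0 ± 10.2 TPM in sgEmpty libraries; SD, n = 3 each; limma adjusted p = 0.00201), and ITGB1 as given above. ITGAV, which pairs with ITGB6, was higher by 0.17 log2 (limma adjusted p = 0.0180), a call lost after median-ratio rescaling (adjusted p = 0.149), quantile normalization (0.0598) and without sgEmpty replicate 2 (0.0658). ITGB2, the beta subunit of leukocyte integrins, fell to 0.905 ± 0.24 TPM in sgSETD1A against 1.98 ± 0.14 TPM in sgEmpty libraries (SD, n = 3 each; -0.65 log2, limma adjusted p = 0.00253). ITGA2, a collagen receptor subunit, was lower by -0.21 log2 (limma adjusted p = 0.0301), a call lost with no filter (adjusted p = 0.0554) and when any 1 of the sgEmpty libraries or sgSETD1A replicate 2 or 3 was left out (0.0620 to 0.103). Without sgEmpty replicate 1, 5 integrin genes were higher, and with any 1 of the sgEmpty libraries left out 1 was lower.

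Focal adhesion and actin-linking genes had 15 higher and 2 lower of 39 tested, 38.5% and 5.13%, with a median of 0.12 log2. After median-ratio rescaling the counts were 8 and 5 and the median 0.05, and after quantile normalization 12 and 4 with a median of 0.08. SRC, a tyrosine kinase of adhesion sites, rose to 3.75 ± 0.48 TPM in sgSETD1A against 1.80 ± 0.24 TPM in sgEmpty libraries (SD, n = 3 each; 0.76 log2, limma adjusted p = 7.01e-04), its scaffold NEDD9 by 0.40 log2 (limma adjusted p = 0.00458) and the tensin TNS3 by 0.38 log2 (limma adjusted p = 0.00175). CAV1, the caveolae protein, fell by 0.43 (limma adjusted p = 4.25e-04). PTK2B, a kinase related to focal adhesion kinase, fell by 0.35 (limma adjusted p = 0.0210), which was lost without sgEmpty replicate 3 or sgSETD1A replicate 2 or 3 (adjusted p = 0.0530 to 0.0772, with 1 gene lower).

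Mesenchymal transition factors and markers had 6 higher and 1 lower of 14 tested, 42.9% and 7.14%, with a median of 0.11 log2; 20 of the 34 listed were under 1 TPM on average. That median was 0.06 with median-ratio rescaling, 0.03 with quantile normalization and 0.03 over the 28 genes with any signal. GSC, a homeobox factor, rose by 0.46 log2 (7.24 ± 0.61 TPM in sgSETD1A and 4.98 ± 0.49 TPM in sgEmpty libraries; SD, n = 3 each; limma adjusted p = 0.00317), the surface nucleotidase NT5E by 0.45 (limma adjusted p = 0.00365) and the factor SOX4 by 0.30 (limma adjusted p = 4.82e-04). TNFRSF12A, a receptor of the TNF family, fell by 0.29 (limma adjusted p = 1.48e-04). VIM, the intermediate filament that marks mesenchymal cells, was at 1.26 ± 0.28 and 1.31 ± 0.33 TPM (SD, n = 3 each; limma adjusted p = 0.903), named here after its value was seen. Without sgEmpty replicate 3, 2 genes of the list were lower.

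Contractile and actin isoform genes had 12 higher and 2 lower of 22 tested, 54.5% and 9.09%, with a median of 0.15 log2. After median-ratio rescaling the counts were 7 and 2 and the median 0.07, and after quantile normalization 8 and 3 with a median of 0.09. Besides ACTB, the myosin light chain MYL6 rose by 0.25 log2 (2634 ± 19.3 TPM in sgSETD1A and 2211 ± 33.2 TPM in sgEmpty libraries; SD, n = 3 each; limma adjusted p = 6.13e-05) and the non-muscle myosin MYH10 by 0.25 (limma adjusted p = 0.00296). The falls were those of TAGLN, a smooth muscle marker like ACTA2, by 0.35 (3.90 ± 0.17 TPM in sgSETD1A and 5.29 ± 0.79 TPM in sgEmpty libraries; SD, n = 3 each; limma adjusted p = 0.0203) and of MKL2 (now MRTFB), a coactivator of serum response factor, by 0.24 (limma adjusted p = 0.00641). The call of TAGLN was lost without sgEmpty replicate 1 or 3 or sgSETD1A replicate 2 (adjusted p = 0.0526 to 0.0701, with 1 gene lower).

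Matrix proteases and their inhibitors had 7 higher and 1 lower of 22 tested, 31.8% and 4.55%, with a median of 0.14 log2. After median-ratio rescaling the counts were 4 and 3 and the median 0.08; the median was 0.07 with quantile normalization and 0.07 over the 39 genes with any signal. TIMP3, a relative of TIMP2 that binds to the matrix, rose to 22.0 ± 0.99 TPM in sgSETD1A against 13.5 ± 0.55 TPM in sgEmpty libraries (SD, n = 3 each; 0.67 log2, limma adjusted p = 4.54e-05). The serine protease inhibitor SERPINE2 rose by 0.41 log2 (limma adjusted p = 0.0118) and the membrane protease MMP16 by 0.37 (limma adjusted p = 0.0156; 0.0594 without sgSETD1A replicate 3). ADAM9, a surface protease, fell by 0.15 (limma adjusted p = 0.0451), lost with no filter (adjusted p = 0.0747) and without sgEmpty replicate 1 or 2 or sgSETD1A replicate 2 or 3 (0.0840 to 0.143, with 0 genes lower). The higher count was 11 without sgEmpty replicate 1, 3 without sgEmpty replicate 2, 4 without sgSETD1A replicate 2 and 3 without sgSETD1A replicate 3.

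TGF-beta signalling genes had 6 higher and 1 lower of 33 tested, 18.2% and 3.03%, with a median of 0.04 log2, which is -0.03 after median-ratio and -0.01 after quantile scaling, where 5 and 4 genes were lower, and 0.01 over the 38 genes with any signal. BAMBI, a decoy receptor, rose to 347 ± 6.56 TPM in sgSETD1A against 236.7 ± 7.11 TPM in sgEmpty libraries (SD, n = 3 each; 0.55 log2, limma adjusted p = 7.60e-06), the ligand BMP4 by 0.29 log2 (limma adjusted p = 0.00457) and the ligand TGFB2 by 0.28 (limma adjusted p = 0.0103), while BMP7 fell by 0.14 (limma adjusted p = 0.0123). The lower count was 2 without sgEmpty replicate 1 or sgSETD1A replicate 2, 3 without sgSETD1A replicate 1, and 2 with the replicate number as a block.

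Epithelial junction genes had 9 higher and 6 lower of 39 tested, 23.1% and 15.4%, with a median of 0.02 log2, which is -0.05 after median-ratio and -0.02 after quantile scaling. After median-ratio rescaling 1 was higher and 8 lower, and after quantile normalization 3 and 8. EPCAM, an epithelial adhesion protein, rose by 0.22 log2 (735.5 ± 27.1 TPM in sgSETD1A and 631.3 ± 36.1 TPM in sgEmpty libraries; SD, n = 3 each; limma adjusted p = 0.00378). The claudin CLDN12 was higher by 0.21 (limma adjusted p = 0.0157) and the factor ELF3 by 0.19 (limma adjusted p = 0.0382), whose groups overlapped. The call of CLDN12 was lost after median-ratio rescaling (adjusted p = 0.0945) and without sgEmpty replicate 2 or 3 (0.0652 and 0.0506), and that of ELF3 after median-ratio rescaling (0.164), quantile normalization (0.0814), with no filter (0.0793) and without sgEmpty replicate 1 or 2 or sgSETD1A replicate 2 or 3 (0.0950 to 0.135). PKP1, a desmosome plakophilin, and OVOL1, an epithelial factor, each fell by 0.35 (limma adjusted p = 0.0123 and 0.00361). The higher count was 4 without sgEmpty replicate 2, 3 without sgEmpty replicate 3 and 5 without sgSETD1A replicate 3.

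**Figure D5:**
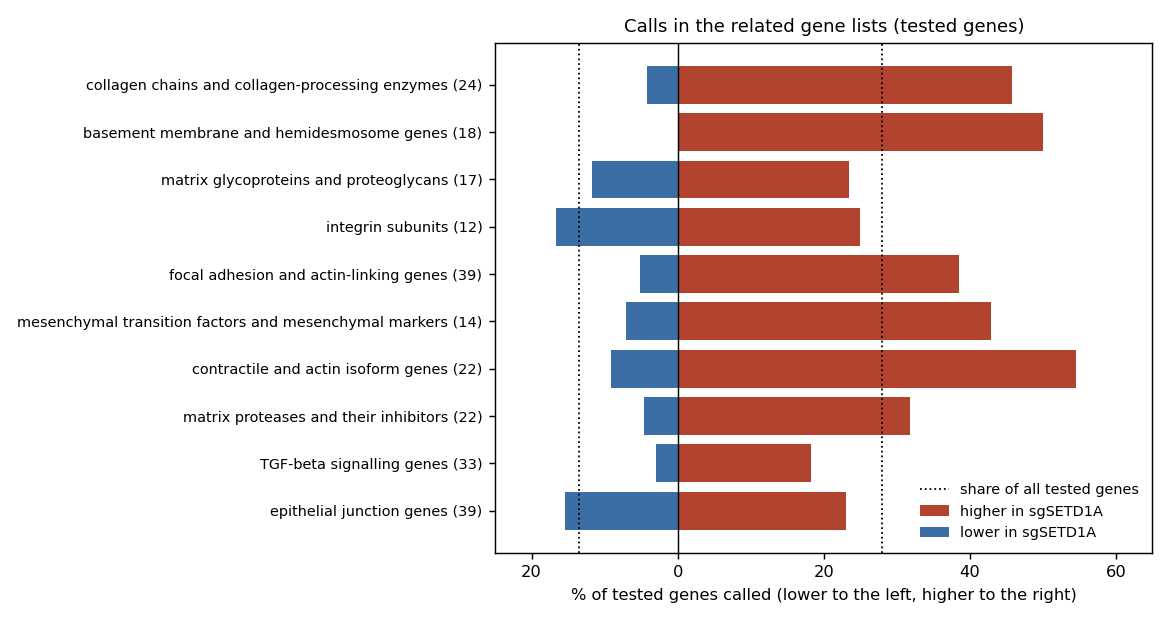
Share of tested genes called higher (right) and lower (left) in sgSETD1A in each related list, in % (horizontal axis), with the number of tested genes in brackets and dotted lines at the shares of all tested genes, 28% and 13.5%. Contractile genes have the longest bar to the right, at 54.5%, and integrin subunits the longest to the left, at 16.7%.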

How the data were processed

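RNA of 3 sgSETD1A and 3 sgEmpty libraries of iCas9 KPL-1 cells was compared; 2 libraries of a guide pool in the same line were not used here. The deposited table holds TPM per gene as made by the authors for 19035 symbols, and its 1 unnamed row, the column total, was left out. Tools listed in the submitters' processing notes are STAR 2.6.0c, RSEM 1.3.1 and bcl2fastq 2.20.0, and the build listed is hg19; their roles and the annotation are not given in the sources used here. TPM holds no counts, so depth is unknown and no interval was computed. Groups and replicate numbers came from the titles. Median-ratio rescaling divides each library by its median ratio to the gene-wise geometric mean.

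Values were compared as log2(TPM + 1) by the moderated linear models of limma 3.58.1 (R 4.3.3; prior variance trended on mean level), for the 11885 genes with a mean of at least 1 TPM, with Benjamini-Hochberg adjustment over all of them and a threshold of 0.05. The procedure was run on simulated data with known shifts in some genes and no shift common to all. That run looked at the recovery of the shifted genes and did not count false calls. All 8 genes passed the filter. The 8 genes and the lists were chosen with earlier results of these data known. The text names the 8, SETD1A, up to 3 higher and 2 lower called genes with the largest differences in each list, direct partners, chromosomal neighbours and the 2 genes nearest in pattern. Promoter windows and gene order came from RefSeq tables (GRCh38.p14); coordinates are given only with those windows, since the build differs from hg19. Alternatives were other pseudocounts, filters and scalings, a replicate block and leaving out each library. No batch is given in the labels.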

Additional observations from a re-analysis of the deposited data

How the results depend on the processing

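The 8 genes kept their direction in every alternative that tested them (COL6A1 and TWIST1 fall below a minimum mean of 5 TPM), except ITGB4, which was at 0.05 log2 and changed sign with median-ratio rescaling (-0.03) and with quantile normalization (-0.02). A pseudocount of 5 gave 0.31 log2 for COL6A1, 0.35 for COL6A2, 0.40 for ITGA6 and 0.28 for TWIST1, and one of 0.1 gave 0.80 for COL6A1; low genes depend on it by construction. Leaving out 1 library gave 0.56 to 0.74 for COL6A1, 0.41 to 0.52 for COL6A2, 0.32 to 0.42 for FN1, 0.52 to 0.64 for ITGA6, 0.02 to 0.10 for ITGB4, 0.30 to 0.42 for TIMP2, 0.43 to 0.58 for TWIST1 and -0.53 to -0.42 for ACTA2. Whether the replicate numbers pair the libraries is not known. Deviations of same-numbered libraries correlated at 0.0845, -0.104 and 0.169 across genes, and only sgSETD1A replicate 3 correlated best with its own number. Within a group the deviations of each gene sum to 0, so these correlations depend on each other and cannot decide it. With the replicate number as a block 3103 genes were higher and 1539 lower of all tested, against 3327 and 1605 without it, and 2 TGF-beta genes were lower. Over all genes 1837 were higher with median-ratio rescaling and 2142 with quantile normalization; leaving out 1 library gave 2361 to 3459 higher and 1288 to 1616 lower. In the lists, median-ratio rescaling gave 7 collagen genes higher, 1 basement membrane gene lower, 8 focal adhesion genes higher and 5 lower, 7 contractile genes higher, 4 protease genes higher and 3 lower, 5 TGF-beta genes lower and 1 epithelial junction gene higher; quantile normalization gave 7 collagen genes higher, 1 basement membrane, 4 focal adhesion and 4 TGF-beta genes lower and 3 epithelial junction genes higher. With no filter 1 glycoprotein gene, 1 integrin and 0 protease genes were lower, while a minimum mean of 5 TPM left 1 glycoprotein, 1 integrin, 1 focal adhesion and 1 contractile gene lower, where low genes were no longer tested. Leaving out 1 library, the counts higher and lower ran over 7 to 14 and 0 to 1 (collagen), 7 to 10 and 0 to 1 (basement membrane), 2 to 5 and 1 to 2 (glycoproteins), 2 to 5 and 1 to 2 (integrins), 11 to 15 and 1 to 2 (focal adhesion), 5 to 6 and 1 to 2 (mesenchymal), 10 to 12 and 1 to 2 (contractile), 3 to 11 and 0 to 1 (proteases), 5 to 6 and 1 to 3 (TGF-beta) and 3 to 8 and 4 to 8 (epithelial junctions). For the other shifts the cause was not tested. TPM holds no depth, so what depth limits could not be worked out.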
